A study of Mus musculus with 57 samples.

Results

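The genes of the cytosolic ribosomal proteins were followed in adipose tissue of mice with a missense change in the mitochondrial fusion protein mitofusin-2. Members were chosen by name among protein-coding genes, as symbols that begin with Rpl or Rps and a number, together with Rplp0 to Rplp2 and Rpsa, and without ribosomal S6 kinases and named pseudogenes. Of 52853 genes counted, 86 met this rule. They comprised 43 large subunit proteins, 31 small subunit proteins, 3 P-stalk proteins, 8 paralogues by name and Rps19bp1, which binds Rps19 and is no subunit itself. At least 1 count was found for 85 of the 86 in some mouse, and Rpl10l, a retrogene known from the testis, was at 0 in every mouse.

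Homozygous Mfn2 R707W knock-in (KI) male mice were compared with wild-type (WT) male littermates on a C57BL/6J background. The KI line came from a single CRISPR founder and also carries a silent EcoRV site, so that all KI mice share that founder's allele in every tissue. Mice were 5 weeks old when they were placed on chow or on a high fat diet (HFD, 45% of kcal as fat) for 6 months. Polyadenylated RNA was sequenced from inguinal white adipose tissue (WAT) of 7 WT and 6 KI mice on chow, from inguinal WAT of 8 WT and 8 KI mice on HFD, and from brown adipose tissue (BAT) of 6 WT and 6 KI mice on HFD.

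A cytosolic ribosome joins a small subunit, which reads the mRNA, to a large subunit, which forms the peptide bond, and the P-stalk of the large subunit recruits elongation factors. Subunit proteins are made in matched amounts, and their mRNAs begin with a C followed by a run of pyrimidines, the 5′ terminal oligopyrimidine (TOP) motif, through which mTORC1 and the protein Larp1 control how strongly they are translated. Ribosomal protein mRNAs make up a large share of the mRNA of growing cells. The mRNA level measured here is therefore not the rate at which the proteins are made.

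To show where pyrimidine runs of this kind lie, windows around annotated starts were read from the RefSeq promoter table of GRCm38.p6, which held at least 1 window for 66 of the 86 members. A run of 8 or more pyrimidines beginning with C lay between 25 bases before and 50 bases after an annotated start in 50 of these 66 members (75.8%) and in 24.3% of all 27025 genes in the table. The following windows belong to members of both subunits and a paralogue whose values are given further on, with the pyrimidine run in capitals.
Rps2, chr17:24720095-24720112, plus strand: ccgcggcgCCTCCCTCTT
Rps15a, chr7:118116141-118116170, minus strand: ccggcccaCTCTCTTTCTgccatcttccct
Rpl10, chrX:74270849-74270865, plus strand: gggagcgtCTCTTTTCC
Rpl38, chr11:114668572-114668601, plus strand: gcctcgttCTTTCCCCgttctcttcggttc
Rpl22l1, chr3:28805503-28805532, plus strand: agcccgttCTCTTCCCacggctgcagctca
Counted from the annotated start at 0, the runs began at position -15 for Rps15a, 0 for Rpl38, 3 for Rpl22l1, 40 for Rps2 and 41 for Rpl10. Those of Rps2 and Rpl10 lie after the annotated start and reach the end of the table's window. No such run was found in the windows of Rplp0, Rpsa, Rpl27 or Rpl7l1, which says only that these letters are absent there. The ETS-type motif CCGGAAG, searched on both strands of the 250 bases before to 50 bases after the start, was found in 39.4% of members with a window and in 9.93% of all genes, and TATAAA, searched on the sense strand, in 9.09% and 9.77%.

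Counts summed to 8042590 to 11720500 per mouse in BAT and in inguinal WAT on chow, and to 17572800 to 25680400 in inguinal WAT on HFD. Levels are given as CPM, read counts scaled to a common library size over all 41 mice. Summed brown adipocyte markers lay between 12164 and 22289.7 CPM in BAT and at 856 CPM or less in inguinal WAT. Summed CPM of 13 lymphocyte markers, of which Ccl21a was at 0 in every mouse, was more than 3 times the median of its tissue and diet in 7 inguinal WAT mice. These were WT mice 1 and 4 and KI mice 1 and 3 on chow, with 79.2, 141, 159 and 613 CPM, and WT mice 2 and 6 and KI mouse 2 on HFD, with 624, 336 and 893 CPM. In BAT the same sum was between 9.29 and 20.2 CPM in all 12 mice. Mitochondrially encoded genes took a median of 9.91% of counts in WT and 2.52% in KI inguinal WAT on HFD, and 16.2% and 11.2% in BAT. Since bulk tissue was used, fewer cells of a type and less RNA per cell cannot be told apart.

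The 86 genes together took a few per cent of all counts. In WT mice the lowest, median and highest share was 2.71%, 3.28% and 3.74% in inguinal WAT on chow, 1.87%, 2.54% and 3.15% in inguinal WAT on HFD, and 1.88%, 2.36% and 2.78% in BAT. In KI mice it was 3.03%, 3.62% and 4.81% on chow, 2.39%, 2.62% and 4.54% in inguinal WAT on HFD, and 1.98%, 3.39% and 4.54% in BAT. The genotypes overlapped in all 3 settings. With mitochondrially encoded genes left out of the total, the order of the medians turned in inguinal WAT on HFD, to 2.84% in WT and 2.68% in KI mice. It stayed the same on chow (3.36% and 3.69%) and in BAT (2.82% and 3.81%). In BAT the share of 4 KI mice exceeded that of all WT mice, and KI mouse 5, at 1.98%, lay below all WT mice but 1. In inguinal WAT on HFD the highest KI share belonged to mouse 2, which also had the highest lymphocyte marker sum of all 41 mice.

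**Figure D1:**
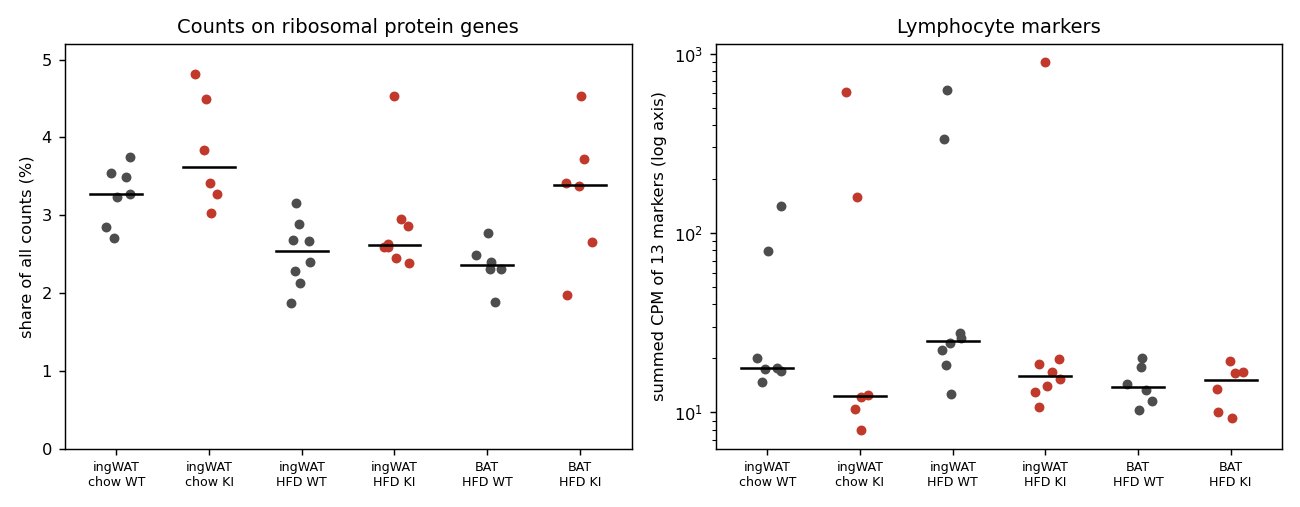
Left, share of all counts on the 86 ribosomal protein genes (per cent), and right, summed CPM of 13 lymphocyte markers (log axis), for each mouse (points, WT grey, KI red) with the group median (line). The highest KI share in inguinal WAT on HFD, 4.54%, and the highest marker sum, 893 CPM, belong to the same mouse, whereas BAT mice with shares up to 4.54% have marker sums of 20.2 CPM or less.

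Per kilobase of exon, the abundance of members differed widely within 1 tissue. In WT inguinal WAT on HFD the highest levels were 717 CPM per kb for Rplp1, a P-stalk protein, 566 for Rps15 and 536 for Rpl36. The SD over 8 mice was 184, 134 and 121 CPM per kb. The genes were measured in the same mice and vary together, so these SDs do not tell whether neighbours in this order differ. Differences within each mouse were not tested. The lowest levels above 0 were 1.06 CPM per kb for Rpl24 and 0.533 for Rpl36al. Rpl24 is a standard subunit, and 47% of its exon bases are shared on the same strand with a second annotated gene, Gm28037, which had no count in WT mice of any tissue. How reads shared by 2 genes were counted is not given in the sources used here. For Rpl36al, a copy of Rpl36a, 24.5% of exon bases are shared with Gm49383, and near-identical copies elsewhere held 1250% of its own count. In the same way 29.4% of Rpl13a and 20.6% of Rps10 exon bases lie on a second gene of the same strand, and both were low in WT inguinal WAT on HFD, at 10.8 ± 2.03 and 2.60 ± 0.532 CPM (SD, n = 8). Near-identical copies elsewhere held 1920% of the own count of Rpl13a, 284% of that of Rpl24 and 67.7% of that of Rps10. Over the members, 69 of 86 share a stretch of at least 150 bases at 98% identity or more with another gene, so that their counts are uncertain to that extent. For Rps2 such copies held 0.163% of its own count, for Rpl21 23.3% and for Rpl29 27.7%.

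Members varied together from mouse to mouse. Of 80 members above a mean of 5 CPM, 69 had a Pearson correlation above 0.8 and 45 above 0.9 with the median of the other members, computed on deviations from the group means over 41 mice. The points share their library, and these correlations are a description. Outside the family the closest genes were Fau (r = 0.97), which encodes the small subunit protein eS30 fused to a ubiquitin-like protein, and the pseudogene Gm11478 (0.95). D730044K07Rik (0.91) and Tlcd1 (0.91) were also close, and each overlaps exons of a member on the opposite strand, D730044K07Rik those of Rpl30 and Tlcd1 those of Rpl23a. Whether counting used strand is not given in the sources used here, and reads of such neighbours cannot be told apart without it. Tpt1 (0.90), itself a TOP mRNA, Eef1b2 (0.85), an elongation factor subunit, and Rack1 (0.83), a protein of the small subunit, were also among the 20 closest of 11481 genes compared. The lowest r among members above 5 CPM were -0.27 for Rpl7l1, a nucleolar Rpl7-like protein, and -0.00 for Rpl3l. The mean of Rpl3l rests largely on KI mouse 4 on chow, at 185 CPM, where the next highest mouse of that group had 0.787 CPM. Correlation of the member median with the lymphocyte marker sum, on log2 deviations from the group means over the same 41 mice, was 0.51.

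**Figure D2:**
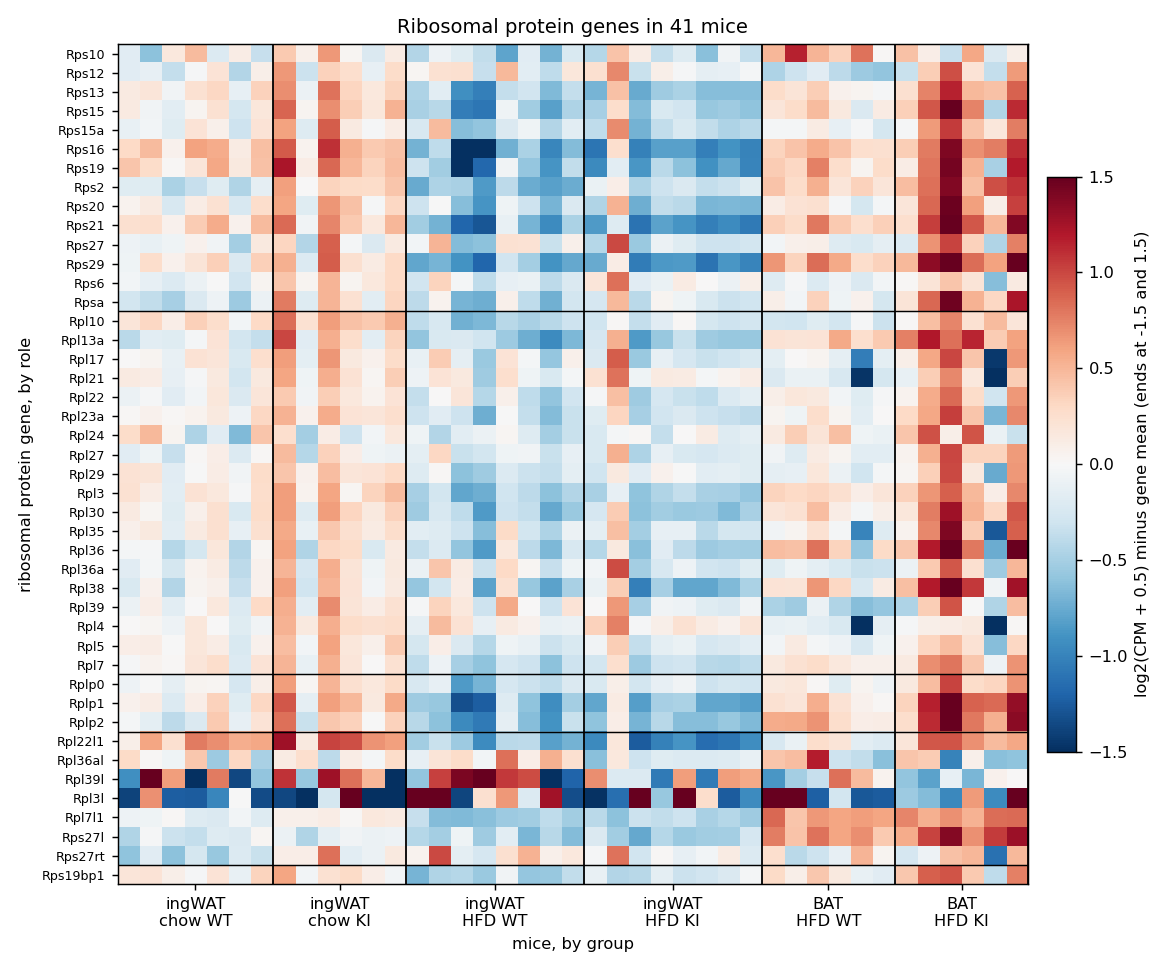
Levels of 44 members named in the text, as log2(CPM + 0.5) minus the gene's mean over all 41 mice (colours end at -1.5 and 1.5), with mice as columns in their 6 groups and genes as rows by role. Most rows share 1 pattern over the mice, columns of inguinal WAT on HFD are mostly blue, and the fifth column of each BAT group stands apart, for example at Rpl4 with 205 and 136 CPM.

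Mouse 5 of both BAT groups stood apart within the family. Rpl4, which lines the peptide exit tunnel, was at 205 CPM in WT mouse 5 and 136 CPM in KI mouse 5, and between 516 and 668 CPM in the other 10 BAT mice. Rpl21 was at 170 and 121 CPM in these mice and between 392.3 and 778 CPM in the others. Rpl17, Rpl35 and Rpl36 showed the same order, and these 5 large subunit genes were chosen after their values were seen. Of 82 members tested in BAT, 35 (42.7%) were lower in both of these mice than in every other BAT mouse, against 6.5% of all 13267 genes tested, and of 60 ribosome assembly factors 21 (35%) were. On the log2 scale the median member deviated from the other mice of its group by -0.20 in WT mouse 5 and by -0.76 in KI mouse 5, and over the 82 members the deviations of the 2 mice had r = 0.75. The same r was 0.44 over all genes tested and 0.88 over the 60 assembly factors, so that it is not particular to the family. The labels name nothing that these mice share beyond their number and diet, and the member counts and medians in BAT and the BAT values of the genes named by rule were also computed without them.

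The first comparison asks whether KI mice differ from WT mice in inguinal WAT on HFD. Rps2, a small subunit protein at the mRNA entry channel, rose in KI mice, and no other member was called. Other members were spread around a small positive median, at 0.10 for large subunit, 0.08 for small subunit and 0.14 for P-stalk genes. Paralogues stood at both ends, with Rpl3l at 0.51 ± 1.04 and, lowest, Rpl36al at -0.90 ± 0.27 and Rpl39l at -0.71 ± 0.53 on the log2 scale (standard errors). A gene was called at a Benjamini-Hochberg adjusted p below 0.01 from edgeR's quasi-likelihood test, as in all comparisons here. Of 85 members tested 1 was called higher (1.18%) and 0 lower, where 6.21% and 5.24% of all 16471 genes tested were called higher and lower. At an adjusted p below 0.05 there were 2 higher and 1 lower, against 11.4% and 9.56% of all genes, at an unadjusted p below 0.05 there were 6 and 1, against 17.8% and 15.1%, and DESeq2 called 1. No member separated KI from WT mice without overlap, against 2.09% of all genes above and 2.43% below. The median log2 fold change was 0.10 over members and 0.01 over all genes, with 65 of 85 members above 0 against 50.8% of all genes. Of 9 macrophage markers 8 had negative log2 fold changes (Itgax was called lower), as did 5 of 6 fibroblast markers (Lum was called lower). Called higher were 2 of 4 brown adipocyte markers tested (50%) and 2 of 8 adipocyte markers (25%). The adipocyte list went both ways, since it also holds Adipoq and Lep. The study reports the mRNA of both as lower in KI mice in this tissue and diet. The brown adipocyte sum rose from a WT median of 21.5 to a KI median of 45.1 CPM. For the adipocyte sum these medians were 31050.8 and 29533.8 CPM, lower in KI. What these cell types contributed to the member values was not tested.

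Rps2 (ENSMUSG00000044533, chr17:24718116-24721929, plus strand, GRCm38) had a lowest, median and highest level of 387, 416 and 529 CPM in WT mice and of 504, 581 and 749 CPM in KI mice on HFD. All but 1 of the 8 KI mice lay above every WT mouse. The log2 fold change of Rps2, with its standard error (SE), was 0.43 ± 0.10 (SE, edgeR adjusted p = 0.00295), and an exact two-sided permutation test gave p = 0.000466, or 0.0035 adjusted over 12 such tests. Here and on chow, Rps2 was taken up because it was called in these same mice. Its permutation p takes no account of that choice and is no separate support. Rpl36al was at 0.419, 0.670 and 1.28 CPM in WT and 0.152, 0.377 and 0.618 CPM in KI mice, on 3 to 29 counts per mouse (-0.90 ± 0.27 SE, edgeR adjusted p = 0.0248). For Rps6, the substrate of S6 kinase, the log2 fold change was 0.29 ± 0.14 SE, with an edgeR adjusted p = 0.162. Rpl22l1, a paralogue of Rpl22, was between 13.4 and 17.4 CPM in 7 of 8 KI mice and between 16.8 and 25.8 CPM in WT mice. KI mouse 2, at 36.9 CPM, lay above all of them, and the log2 fold change of Rpl22l1 was -0.24 (SE 0.18) with that mouse and -0.48, past the threshold, without it. Without KI mouse 2 the median over members was -0.03 and 3 members were called, Rps2 higher and Rpl22l1 and Rpl36al lower. Without the 3 mice high in lymphocyte markers the median was 0.04, with Rps2 (0.39) higher and Rpl22l1 (-0.40) lower.

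On chow, 82 of 83 members tested had a higher mean in KI than in WT inguinal WAT, against 48.8% of all 14629 genes tested. The median log2 fold change was 0.26 over members and -0.01 over all genes, and it was 0.26 for large subunit, 0.24 for small subunit and 0.35 for P-stalk genes. Rps2 rose and no other member was called. Summed lymphocyte markers ran from 14.8 to 141 CPM in WT and from 7.94 to 613 CPM in KI mice. The medians of this sum were 17.6 and 12.4 CPM, lower in KI. All KI mice but mice 1 and 3 lay below every WT mouse. The 10 lymphocyte markers tested all had positive log2 fold changes with a median of 1.53, none of them called. All 9 macrophage markers had negative ones, and 2 of 4 brown adipocyte markers tested were called higher, with summed levels of 41.2 to 123 CPM in WT and 151 to 856 CPM in KI mice. The part of these cells in the result was not tested. Called higher were 1 of 83 members (1.2%) and 1.96% of all genes, and called lower were 0 members and 1.27% of genes. At an adjusted p below 0.05 there were 4 members higher and 0 lower, against 5% and 3.55% of all genes. At an unadjusted p below 0.05 there were 23 (27.7%) higher and 0 lower, against 12.8% and 11.5%. Without WT mice 1 and 4 and KI mice 1 and 3, which were high in lymphocyte markers, no member was called and the median over members was 0.10.

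Rps2 was at 502, 614 and 637 CPM (lowest, median and highest) in WT mice on chow and at 699, 867 and 1066 CPM in KI mice. No KI mouse overlapped the WT range. The log2 fold change was 0.60 ± 0.11 (SE, edgeR adjusted p = 0.00359, exact permutation p = 0.000583). It was 0.53 without the 4 mice named above and lay between 0.55 and 0.66 when 1 mouse was left out at a time, and the call was lost without WT mouse 3 and without KI mouse 6. Groups did not overlap in 3 of 83 members (3.61%), against 2.75% of all genes in that direction and 0 against 1.47% in the other. Besides Rps2 these were Rps27rt, a retrogene of Rps27 counted at 12 to 43 reads (log2 fold change 0.73 ± 0.23 SE), and Rpl7l1, at 38.7 to 45.6 CPM in WT and 45.9 to 50.4 CPM in KI mice (0.20 ± 0.06 SE). Neither was called, with adjusted p = 0.0681 and 0.0611 from edgeR. Rpsa, the small subunit protein also known as the laminin receptor precursor, had 695, 840 and 965 CPM in WT and 886, 1229 and 1745 CPM in KI mice (0.56 ± 0.16 SE, edgeR adjusted p = 0.0393). The lowest member was Rpl24 (-0.10 ± 0.30 SE), on 7 to 24 counts.

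In BAT, 80 of 82 members tested had a higher mean in KI than in WT mice, with a median log2 fold change of 0.47 over members and -0.01 over all 13267 genes tested, of which 48.3% were positive. Large subunit, small subunit and P-stalk genes lay close to each other, at 0.46, 0.47 and 0.56. Rplp1, Rpsa and Rpl38 had the highest values, and Rps10 and Rpl39l were below 0. No member passed the threshold, with 0 called in either direction by edgeR, where 1.36% of all genes were called higher and 0.475% lower. At an unadjusted p below 0.05, 52 members (63.4%) were higher and 1 was lower, against 12.8% and 11.7% of all genes, at an adjusted p below 0.05 there were 12 (14.6%) higher against 4.15% and 0 lower against 3.02%, and DESeq2 called 9 at 0.01. All 7 brown adipocyte markers had positive log2 fold changes and all 6 fibroblast markers negative ones (Pi16 was called lower), with summed levels of 12164 to 17793 and 14159 to 22289.7 CPM for the first and of 263 to 603 and 178 to 274 CPM for the second in WT and KI mice, and their part in the result was not tested. Without mouse 5 of both groups the median over members was 0.52 and 0 were called, with log2 fold changes of 0.88 for Rplp1, 0.86 for Rpsa, 0.83 for Rpl38, 0.67 for Rpl22l1, 0.52 for Rps2, 0.49 for Rplp0 and -0.42 for Rps10.

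Rplp1, 1 of the paired acidic proteins of the P-stalk, was at 586, 665 and 845 CPM (lowest, median and highest) in WT and at 731, 1184 and 1957 CPM in KI BAT. All KI mice but mouse 1, at 731 CPM, lay above the highest WT mouse. Its log2 fold change was 0.85 ± 0.18 (SE, edgeR adjusted p = 0.0119). Rpl22l1 was at 27.6, 29.9 and 39.5 CPM in WT and at 37.0, 50.9 and 63.4 CPM in KI BAT, a log2 fold change of 0.65 ± 0.14 (SE, edgeR adjusted p = 0.0105). Rpl10, which joins the large subunit late in its assembly and lies near its catalytic centre, was the 1 member (1.22%, against 2.64% of all genes) whose KI mice all lay above the WT mice, and for none did all lie below (1.05% of genes). It was at 425, 439 and 524 CPM in WT and 537, 676 and 884 CPM in KI mice (0.55 ± 0.12 SE, edgeR adjusted p = 0.0129). Rpsa was at 847, 1026 and 1294 CPM in WT and 1164, 1651 and 2796 CPM in KI mice (0.76 ± 0.20 SE, edgeR adjusted p = 0.0291). Rpl38, a large subunit protein known from Hox mRNA translation, had 0.75 ± 0.23 (SE, edgeR adjusted p = 0.065). Rps15a, of the small subunit, and Rpl27, of the large one, had 0.56 and 0.53, both with an edgeR adjusted p under 0.05, as had Rps12 (0.69), Rps20 (0.69), Rpl13a (0.51) and Rps13 (0.49). Counts of Rpl13a are uncertain, since near-identical copies held 1920% of its own count. Leaving out KI mouse 1 or KI mouse 5 raised the count of called members to 3, and Rpl22l1 was among them in both cases. Rps2 was at 789, 864 and 1012 CPM in WT and 953, 1299 and 1818 CPM in KI BAT. In 4 of 6 KI mice it exceeded the highest WT value, with a log2 fold change of 0.52 ± 0.15 (SE, edgeR adjusted p = 0.0444, exact permutation p = 0.00866). Rps10 was at 3.50, 5.09 and 8.26 CPM in WT and 2.61, 3.70 and 5.38 CPM in KI mice (-0.54 ± 0.25 SE, edgeR adjusted p = 0.194).

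**Figure D3:**
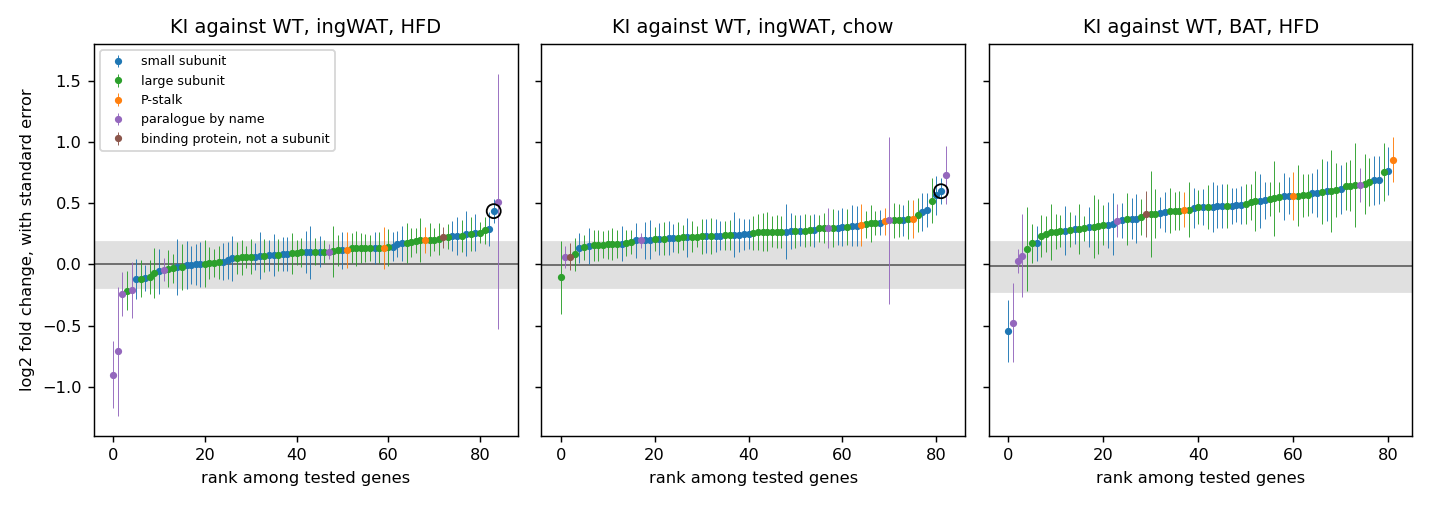
Log2 fold change of KI against WT with its standard error for each member tested (points by role, ranked), with 1 panel for each tissue and diet. The line and grey band give the median and the middle 50% of all genes tested, black rings mark called members (Rps2 in both inguinal WAT panels), and the member median moves from 0.10 and 0.26 in inguinal WAT to 0.47 in BAT.

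Whether these KI effects differed between settings was tested directly. Between HFD and chow in inguinal WAT no member was called by edgeR or DESeq2, where 0.207% and 0.425% of 17400 genes were called higher and lower. At an unadjusted p below 0.05, 4 members had a lower KI effect on HFD and 0 a higher one, against 7.52% and 9.3% of all genes. Of 85 members 7 had a higher KI effect on HFD than on chow, against 52.4% of all genes, and with total counts as the only scaling, which moved the median of all genes to 0.14, it was 33. Between BAT and inguinal WAT on HFD no member was called by edgeR and 1 by DESeq2, where 1.58% and 1.24% of 17214 genes were called higher and lower. The KI effect was higher in BAT for 80 of 85 members, against 49.8% of all genes, and 23 (27.1%) had an unadjusted p below 0.05 in that direction and 1 in the other, against 11.2% and 10.9%. At an adjusted p below 0.05 there was 1 member higher, against 3.93% of all genes, and 0 lower, against 3.51%. This was Rpl22l1, whose KI effect was higher in BAT by 0.93 on the log2 scale (SE 0.25, edgeR adjusted p = 0.019). Its KI values were mostly above WT in BAT and mostly below WT in inguinal WAT on HFD. In inguinal WAT on chow the log2 fold change of Rpl22l1 was positive, at 0.30 (SE 0.16, edgeR adjusted p = 0.279). Without mouse 5 of both BAT groups 0 members were called by edgeR and 82 of 85 had a higher KI effect in BAT.

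Rplp0 is at once a P-stalk protein and, as 36b4, 1 of 3 genes to which the study's quantitative PCR was normalized, with B2m and Hprt. Its primers are shown because they place that assay on this member. Both lie in exon 3 of 7, in coding sequence, and bound a product of 59 bases found in 4 of 4 Rplp0 transcripts of GENCODE vM21 (GRCm38).
36b4 forward, chr5:115560802-115560820: agatgcagcagatccgcat
36b4 reverse, chr5:115560842-115560860: gttcttgcccatcagcacc
Rplp0 mRNA was at 389, 574 and 644 CPM (lowest, median and highest) in WT and 563, 593 and 745 CPM in KI inguinal WAT on HFD (log2 fold change 0.20, exact permutation p = 0.0684). On chow it was at 590, 700 and 748 CPM in WT and 717, 841 and 1085 CPM in KI mice (0.35, p = 0.00175 in the exact permutation test). In BAT it was at 617, 716 and 787 CPM in WT and 775, 922 and 1421 CPM in KI mice (0.44, p = 0.00649 in the exact permutation test). In the last 2 settings 5 of 6 KI mice exceeded all WT mice, with p of 0.00699 and 0.0173 after adjustment over the 12 permutation tests, and edgeR's adjusted p over all genes was 0.0658 and 0.0696. Of the other reference genes, B2m, the light chain of MHC class I, had log2 fold changes of -0.34, -0.06 and -0.00 in inguinal WAT on HFD, inguinal WAT on chow and BAT. Hprt, a purine salvage enzyme, had -0.17, -0.03 and 0.01. For Hprt in inguinal WAT on HFD all 8 KI mice lay below the WT median, and the exact permutation test gave p = 0.00855, or 0.0173 adjusted over the 12. Those 12 tests include Rps2, a gene taken up because it was called in inguinal WAT. The adjusted permutation values of Rplp0 and Hprt depend on that choice. The direction of B2m and Hprt in BAT changed with the scaling.

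**Figure D4:**
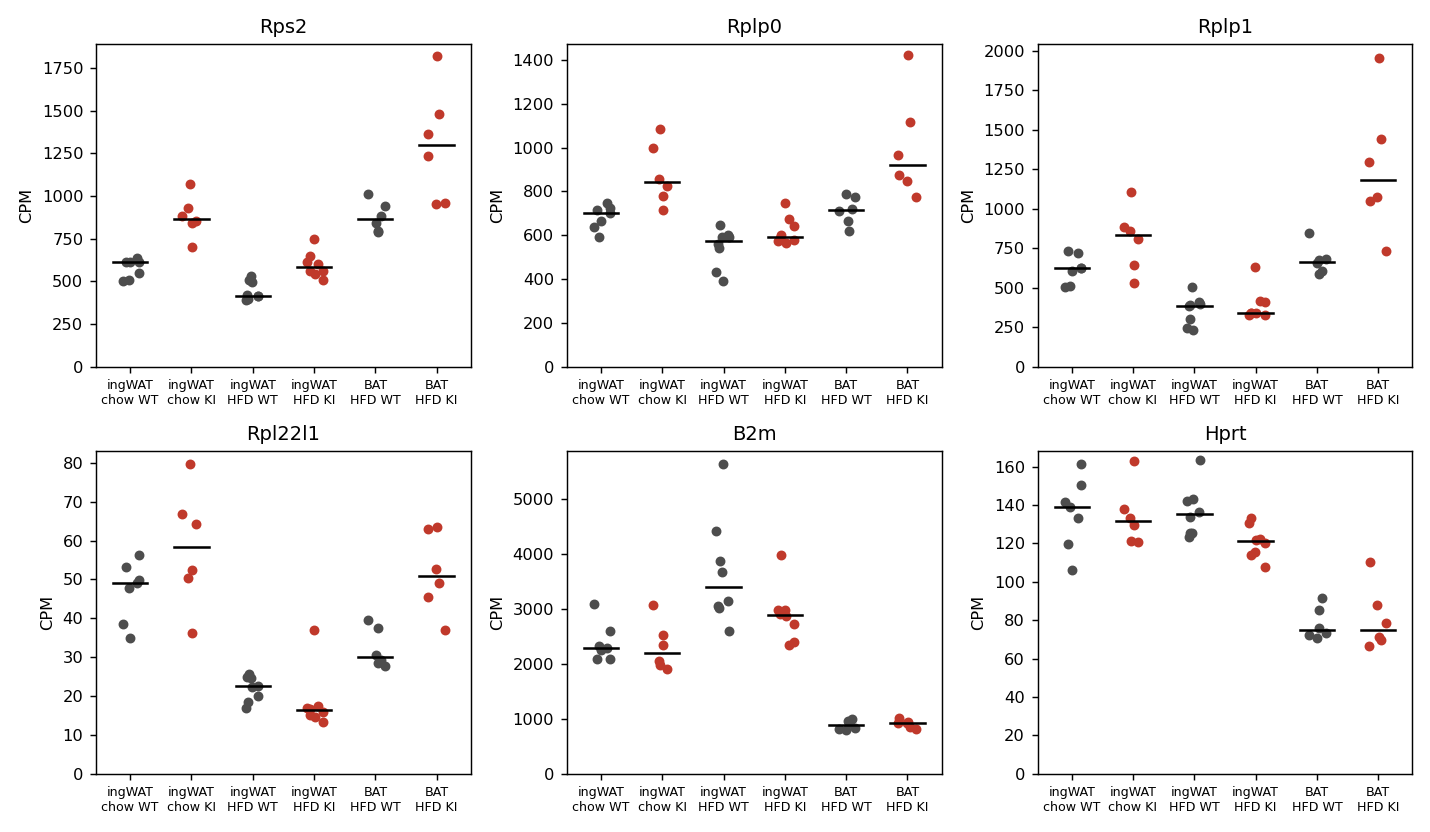
CPM in each mouse (points, WT grey, KI red) with the group median (line) for Rps2, Rplp0, Rplp1, Rpl22l1 and the reference genes B2m and Hprt, each on its own axis from 0. Rps2 medians go from 614 to 867 CPM on chow, from 416 to 581 CPM in inguinal WAT on HFD and from 864 to 1299 CPM in BAT.

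Levels also differed between the tissues and diets, although each tissue and diet was a deposited table of its own, so that tissue or diet and sequencing of that table cannot be told apart. In WT mice on HFD 41 members (48.8%) were called higher and 1 lower in BAT than in inguinal WAT, against 28.1% and 29.7% of all 16201 genes. In KI mice 63 (75%) were called higher and 0 lower, against 29.9% and 30.9%. With total counts as the only scaling, under which the median of all genes was -0.58 and -0.73 instead of -0.07 and -0.09, the counts were 10 higher and 16 lower in WT and 26 higher and 5 lower in KI mice. Without mouse 5 of both BAT groups 44 members were called higher in WT and 68 in KI mice, and 0 lower. Rps29, a zinc-binding small subunit protein, was at 85.9, 115 and 162 CPM (lowest, median and highest) in WT inguinal WAT and 236, 270 and 351 CPM in WT BAT, a log2 fold change of 1.25 (SE 0.18). In KI mice it was 1.92 (SE 0.18), and Rps21, another small subunit protein, was 1.88. Rpl39, a short protein of the peptide exit tunnel, was the 1 member called lower in WT BAT, at 73.4 to 108 CPM against 92.0 to 170 CPM in WT inguinal WAT (-0.56 ± 0.18 SE, edgeR adjusted p = 0.0054).

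On HFD most members had lower levels in inguinal WAT than on chow. In WT mice 31 (36.9%) were called lower and 0 higher, against 15.6% and 12.7% of all genes, with a median log2 fold change of -0.35 over members and 0.03 over all genes. In KI mice 47 (56%) were called lower and 0 higher, against 17.3% and 13.7%, with medians of -0.53 and 0.01, and with total counts as the only scaling 26 were called lower. Rps16 was at 306, 399 and 445 CPM in WT mice on chow and at 100, 178 and 224 CPM in WT mice on HFD, without overlap (-1.20). Rpl22l1 was at 34.9, 49.1 and 56.4 CPM in WT mice on chow and 16.8, 22.5 and 25.8 CPM on HFD (-1.10), again without overlap, and its log2 fold change in KI mice was -1.67. Rps2 (-0.38) and Rpl7l1 (-0.43) were the called members with the smallest difference in WT mice, and Rps19bp1 (-0.45) and Rpl5 (-0.39) in KI mice.

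Paralogues by name differed among themselves in where they were found. Rpl3l, known as the striated muscle counterpart of Rpl3, was below 20 CPM in 40 mice and at 185 CPM in KI mouse 4 on chow, the mouse with the highest Acta1 (9934 CPM), the skeletal muscle actin. Over the 41 mice the correlation of Rpl3l with Acta1 on log2 deviations from the group means was 0.85, and the points share their libraries. Rpl39l, an Rpl39 copy known from the testis, ranged from 0.376 to 13.3 CPM over all mice. Rps27l, an Rps27 paralogue known as a p53 target, had 98.2 CPM on chow, 82.2 CPM on HFD and 179 CPM in BAT as the median of WT mice. Rpl7l1 had WT medians of 42.8, 30.9 and 69.2 CPM in the same order, and in BAT its WT range of 60.6 to 82.4 CPM spanned the KI range of 65.1 to 81.8 CPM. Rps27rt was between 0.609 and 4.27 CPM in all mice, and its near-identical copies held 11500% of its count.

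**Figure D5:**
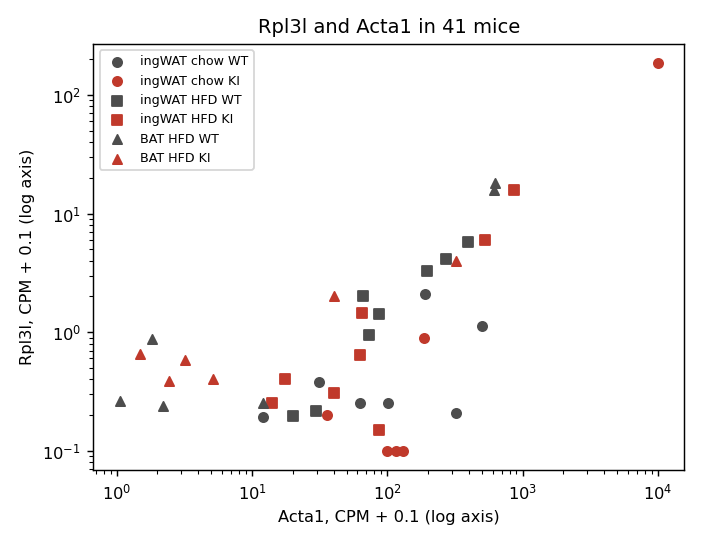
Rpl3l against Acta1 in the 41 mice (CPM + 0.1, both axes log), by tissue and diet (shape) and genotype (colour). The point at the upper right is KI mouse 4 on chow, at 185 CPM Rpl3l and 9934 CPM Acta1.

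Other genes of the translation apparatus are given for comparison. Of the subunit genes Fau and Rack1, neither was called in any setting, and in BAT Fau had a log2 fold change of 0.45 ± 0.22 SE and Rack1 of 0.41 ± 0.12 SE. Called higher in KI mice were 6.21% of all genes with HFD and 1.96% with chow in inguinal WAT, and 1.36% in BAT, and counts and shares of the lists follow in this order. Of 27 initiation factors the counts were 6 (22.2%), 1 (3.7%) and 3 (11.1%), with medians of 0.14, 0.17 and 0.27. Eif3c, a core subunit of eIF3, was called in all 3, at 0.50, 0.71 and 0.77. Of 8 elongation factors 3 (37.5%), 0 and 0 were called higher, among them Eef2 (0.30) and its kinase Eef2k (0.53). Of 20 further TOP mRNAs it was 3 (15%), 0 and 1 (5%), with the chaperonin subunit Cct4 (0.42) on HFD and the snoRNA host Snhg1 (1.00) in BAT. Of 60 ribosome assembly factors 7 (11.7%), 2 (3.33%) and 0 were called, Rrs1 (0.54) leading on HFD and Gnl3 (0.46) on chow. Of 15 genes of RNA polymerase I transcription tested 3 (20%), 0 and 0 were called, Taf1d (0.40) leading. Of the genes that control TOP and cap-dependent translation, 20 on HFD and 19 in the other settings, 1 (5%), 0 and 0 were called. This was Eif4ebp1 (0.68), the mTORC1 target 4E-BP1, and Myc in BAT had 1.91 ± 0.39 (SE, edgeR adjusted p = 0.0128). Of 10 ribosome rescue genes tested 0, 1 (10%, Hbs1l, 0.37) and 1 (10%, Map3k20, the ribotoxic stress kinase, 0.64) were called higher. No gene of these lists was called lower. Mfn2 mRNA, whose protein carries the change, had log2 fold changes of 0.34, 0.36 and 0.29 in inguinal WAT on HFD, inguinal WAT on chow and BAT, none of them called.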

How the data were processed

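Gene counts were deposited as 3 tables, 1 for each tissue and diet. Per the labels and the study's methods, the authors sequenced TruSeq libraries of polyadenylated RNA in pairs, trimmed the reads (cutadapt), mapped them on GRCm38 (STAR), sorted the alignments (SAMtools) and took read counts per gene with featureCounts. Tool versions, annotation release, strand setting and treatment of reads that match several genes are not given in the sources used here. Each inguinal WAT mouse on HFD had 2 technical libraries but 1 column of counts, and how they were combined is not given either. Whether BAT and inguinal WAT came from the same mice is likewise not given. Exon lengths of all 86 members equalled those of GENCODE vM21.

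The tables were joined on 52853 genes, and 0 columns were left without a sample. KI and WT mice were compared within each table with edgeR 4.0.16 (quasi-likelihood test, robust, TMM factors, filterByExpr) in R 4.3.3, with adjusted p over all genes tested and a threshold of 0.01, as in the study, which used DESeq2 (1.42.0 here as an alternative). Differences of the KI effect were interaction terms over 4 groups, and tissues and diets were compared in 1 fit of 6 groups. Levels are CPM with TMM factors over 41 mice, and correlations and exact permutation tests used log2(CPM + 0.5). The fits were tested on simulated counts. The members, the gene lists and the tests were chosen with earlier results of these data known.

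Genes were named by rule where called, among the 3 highest or 3 lowest per KI comparison, the 2 highest or lowest called of the other contrasts, the paralogues, the extremes per length, or as Rps2, Rplp0, Rpsa, Rpl22l1, B2m and Hprt, and other members were named after their values were seen. Alternatives were another scaling, low-count filter, tool or threshold, a replicate block, added pseudogene counts and each mouse left out. Intervals cover the spread between mice, which the labels number as separate animals within each tissue and diet. Comparisons between BAT and inguinal WAT, and the number of 41 mice, took both tissues as from different animals, which is not given. Values of some members and of some other genes are not reported here.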

Additional observations from a re-analysis of the deposited data

Results flagged for a closer look

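In 14 of 120 combinations of a group with a gene or with the share of counts, 1 mouse lay further from the others than Dixon's critical value at 95% allows. For independent tests chance gives about 1 in 20. Members vary together and some genes were named for their values here, so these 14 cases cannot be set against that rate. KI mouse 2 of inguinal WAT on HFD, which had the highest lymphocyte marker sum (893 CPM), accounted for 6 of them, with 4.54% of counts on the 86 genes (next highest 2.95%), 1423 CPM of Rpsa, 666 CPM of Rps6, 630 CPM of Rplp1, 36.9 CPM of Rpl22l1 and 3.74 CPM of Rps27rt. WT mouse 2 of the same table, second to the KI mouse in lymphocyte markers there (624 CPM), had 471 CPM of Rps6, and KI mouse 3 on chow (613 CPM of markers) had 3.76 CPM of Rps27rt. Rpl3l stood apart at 185 CPM in KI mouse 4 on chow and at 15.8 CPM in KI mouse 3 on HFD. In inguinal WAT on HFD, KI mouse 1 had 3984 CPM of B2m and WT mouse 5 had 24.1 CPM of Rps19bp1. On chow KI mouse 2 was low in Rps27l at 83.4 CPM, and in BAT WT mouse 3 was high in Rplp1 at 845 CPM. The part of lymphocyte content in these values was not tested.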

How the results depend on the processing

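At an adjusted p below 0.01, Rps2 was called in inguinal WAT on HFD under DESeq2, every scaling and filter tried and each single mouse left out. Counts of called members in inguinal WAT on HFD were 3 at an adjusted p below 0.05, 0 at 0.001, 2 without mice high in lymphocyte markers (an alternative chosen after seeing the data, as is leaving out mouse 5 of both BAT groups) and 1 to 3 when 1 mouse was left out. On chow they were 4 at 0.05, 0 at 0.001, 5 by DESeq2 (Rpl4, Rplp0, Rps2, Rps6 and Rpsa), 0 without the mice high in lymphocyte markers and 0 to 1 when 1 mouse was left out. In BAT they were 12 at 0.05, 9 by DESeq2, 1 with RLE size factors, 2 with total counts only, 3 with no low-count filter, 1 with members left out of the factors, 10 in 1 fit of all 6 groups and 0 to 3 when 1 mouse was left out, 1 of them (Rpl22l1) without WT mouse 3. For the KI effect in BAT against inguinal WAT 1 member was called at 0.05, 1 by DESeq2 and 1 without mice high in lymphocyte markers. With total counts only, 26 members were called between BAT and inguinal WAT in WT mice and 31 in KI mice, and 26 between diets in KI mice. The median over members, when 1 mouse was left out, was -0.0279 (without KI mouse 2) to 0.14 in inguinal WAT on HFD, 0.18 to 0.34 on chow and 0.34 to 0.56 in BAT, and on chow it was 0.0998 without the mice high in lymphocyte markers. Leaving the 10 most counted genes out of the total put the median share in inguinal WAT on HFD at 2.98% in WT and 2.91% in KI mice. In BAT it was then 2.88% in WT and 3.86% in KI mice. Leaving out mitochondrially encoded genes gave 2.84% and 2.68% in inguinal WAT on HFD and 2.82% and 3.81% in BAT, in the same order.

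Mice with the same number were not paired, since correlations of their deviations ran from -0.25 to 0.71 over 8 pairs on HFD, -0.29 to 0.18 over 6 pairs on chow and -0.08 to 0.44 over 6 pairs in BAT, and only 2, 2 and 3 pairs were above 0.1. With the number as a replicate block, 0 members were called on chow, 2 in BAT (Rpl22l1 and Rplp1) and 28 between diets in KI mice, Rpl3l on HFD turned to -0.76, Rpl24 on chow to 0.030 and Hprt in BAT to -0.0101.

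The causes of these and the following changes were not tested. Without the mice high in lymphocyte markers Rps19bp1 on chow was -0.0655 and Rps27l -0.0162. B2m in BAT was 0.00306 with DESeq2, 0.00305 with RLE size factors, 0.00365 with total counts, 0.00635 with no filter, 0.0123 with members left out of the factors, 0.0362 in 1 fit and 0.00648 without mouse 5 of both groups, and Hprt was -0.0183 with upper-quartile factors and -0.0448 without mouse 5. When 1 mouse was left out, Rpl3l on HFD ranged from -0.79 (without KI mouse 3) to 0.88, Rps19bp1 on chow from -0.0119 to 0.12, Rpl24 on chow from -0.22 to 0.0221, B2m on chow from -0.16 to 0.0165 and in BAT from -0.0240 to 0.0379, Hprt on chow from -0.0890 to 0.0210 and in BAT from -0.0859 to 0.0733, and Rpl7l1 in BAT from -0.000314 to 0.10.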
